A study of Rattus norvegicus with 14 samples.

Results

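The vitamin C genes examined here were 4 genes of the 16816 in the RNA-seq count table, taken by name: Gulo and Rgn, which make ascorbate, and Slc23a1 and Slc23a2, which carry it into cells. They were measured in PCCL3 cells, a line of rat thyroid follicular cells that grows in thyrotropin. PPFP cells stably express myc-tagged human PAX8-PPARG fusion protein (PPFP), the product of a translocation found in thyroid carcinomas, and EV cells carry the empty vector. Each line was cultured for 16 hours with 1 μM pioglitazone, a drug that activates PPARG, or with its DMSO vehicle, which gave 4 groups of 3 libraries from 3 independent experiments. Each condition therefore rests on a single transfected line, and the fusion protein cannot be told apart from other differences between the lines. Gulo had been seen to be among the largest increases of PPFP cells without pioglitazone when the genes were chosen. Values from that comparison are for this reason given as a description, with no test, for all 4 genes.

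Most mammals, rats among them, make vitamin C from glucose, mainly in the liver. UDP-glucuronate is freed to glucuronate, reduced to gulonate and closed into gulonolactone by regucalcin (Rgn), and the last step to ascorbate is taken by L-gulonolactone oxidase (Gulo), an enzyme that humans have lost. Cells that do not make ascorbate take it up with sodium through SVCT1 (Slc23a1), found mostly in gut and kidney epithelium, or SVCT2 (Slc23a2), found in most tissues. Oxidized vitamin C, dehydroascorbate, enters instead through glucose transporters and is reduced again inside the cell.

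RefSeq sequence upstream of the start site was at hand for 3 of the 4 genes (Rgn, Slc23a1 and Slc23a2), and for their relatives Slc23a3 and Slc23a4. The 250 bases before the start are shown for Rgn, which gave no counts, for Slc23a2, which was lower in PPFP cells, and for Slc23a3, which was higher, since PPFP carries the DNA-binding domains of both PAX8 and PPARG. Positions are in GRCr8, bases run 5′ to 3′, and capitals mark the AGGTCA half-site in Rgn and the closest match to a PPARG repeat in Slc23a3.
Rgn (chrX:4187958-4188207, minus strand): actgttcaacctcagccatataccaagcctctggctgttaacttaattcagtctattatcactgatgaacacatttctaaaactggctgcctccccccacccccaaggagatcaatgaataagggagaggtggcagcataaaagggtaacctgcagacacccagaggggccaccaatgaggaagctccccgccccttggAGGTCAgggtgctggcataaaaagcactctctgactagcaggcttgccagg
Slc23a2 (chr3:139847344-139847593, minus strand): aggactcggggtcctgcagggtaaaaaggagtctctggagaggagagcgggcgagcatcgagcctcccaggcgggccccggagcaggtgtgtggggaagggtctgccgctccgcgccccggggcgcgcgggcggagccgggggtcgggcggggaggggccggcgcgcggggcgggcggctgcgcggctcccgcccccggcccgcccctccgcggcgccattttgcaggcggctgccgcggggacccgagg
Slc23a3 (chr9:84080038-84080287, minus strand): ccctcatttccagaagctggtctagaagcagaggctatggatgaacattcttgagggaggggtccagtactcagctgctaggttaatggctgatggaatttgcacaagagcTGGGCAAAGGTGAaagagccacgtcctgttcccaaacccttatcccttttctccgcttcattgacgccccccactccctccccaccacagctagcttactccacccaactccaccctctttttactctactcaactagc

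The letters searched on both strands were AGGTCA, the half-site of PPARG and many other nuclear receptors, AGGTCANAGGTCA, its direct repeat with 1 base between, and GTCANGC as a PAX8 core. The half-site is contained in the repeat. The half-site was present in 14.1% of 33469 rat promoters, the full repeat in 0.0508% and the PAX8 core in 8.24%. Rgn held 1 half-site, Slc23a4 held 1 PAX8 core, and no promoter of the 5 held the full repeat. The closest match to the repeat had 9 of its 12 fixed letters in Slc23a3, a score reached by 21.4% of promoters. It had 8 in Rgn, Slc23a1 and Slc23a4, reached by 74.5%, and 7 in Slc23a2, reached by 99.6%. These are matches of letters in a short window and not measured binding.

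Total counts ranged from 23724703 to 35240176 per library. As a check of the lines, Pparg counts rose from 53, 54 and 36 in EV cells to 1274, 1618 and 1288 in PPFP cells without pioglitazone, while Pax8 was at 734 ± 56 CPM (SD, n = 3) and 694 ± 17 CPM. CPM is the count scaled to a common library size with normalization factors. These counts may hold reads of the human transgene. All 8 thyroid markers searched were expressed, with summed levels of 9880 to 14173 CPM over the 12 libraries. Of 9 hepatocyte markers in the table, 8 stayed under 1 CPM in every library. Their summed level was 0.0666 to 0.190 CPM for EV and 1.25 to 2.44 CPM for PPFP, where Serpina1 made up most of it. Ahsg had no counts, and Alb had 4 counts in a single EV library. Of 7 kidney tubule markers, 3 had no counts, and the summed level was 3.21 to 6.86 CPM for EV and 8.42 to 14.4 CPM for PPFP. The 5 adipocyte markers summed to 9.15 to 13.9 CPM for EV and 714 to 982 CPM for PPFP, nearly all of it Cfd, which was at 716 ± 13 CPM (SD, n = 3) without pioglitazone. Plin1 was at 6.44 ± 0.53 CPM without and 40.9 ± 7.2 CPM with the drug in PPFP cells, and Adipoq at 4.54 ± 0.18 and 2.40 ± 0.55 CPM. Fabp4 reached at most 0.189 CPM and Lep had no counts. The part of other cell types in the results below was not tested.

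Gulo, the enzyme of the last step, was nearly silent in EV cells and strongly expressed in PPFP cells. Its raw counts were 1, 5 and 3 in EV cells without pioglitazone and 2, 4 and 4 with it. They were 3785, 5752 and 4657 in PPFP cells without pioglitazone and 5704, 9052 and 10242 with it. No EV library came near any PPFP library, and the gap between the lines held in every experiment. In normalized units the mean of Gulo was 0.100 ± 0.067 CPM (SD, n = 3) for EV and 184 ± 39.9 CPM for PPFP without the drug. With pioglitazone the means were 0.107 ± 0.046 CPM and 298 ± 71.5 CPM. In such bulk samples, fewer expressing cells and less RNA per cell cannot be told apart.

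With so few counts in EV cells, the size of the Gulo difference is known only within wide limits. Without pioglitazone the summed counts were 9 against 14194, a ratio after normalization of 1824 (95% exact interval 960 to 3989). With pioglitazone they were 10 against 24998, a ratio of 2904 (95% exact interval 1579 to 6056). The intervals cover counting error only. The fitted log2 fold change was 10.78 (SE 0.33) without pioglitazone, as a description. In the libraries with pioglitazone it was 11.45 (SE 0.35). These are other libraries, but of the same lines and experiments, and with 2 to 4 counts in EV cells Gulo passed the filter on low counts only through PPFP cells, so this value too is a description, with no test. Of all 10291 genes tested there, 52.7% passed at an adjusted p under 0.05 (26.3% higher and 26.4% lower), 19.7% also had a fold change above 2, and 62.9% had groups that did not overlap. Without pioglitazone the shares were 45.2% (22% higher and 23.1% lower), 14.6% and 56.5%.

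**Figure D1:**
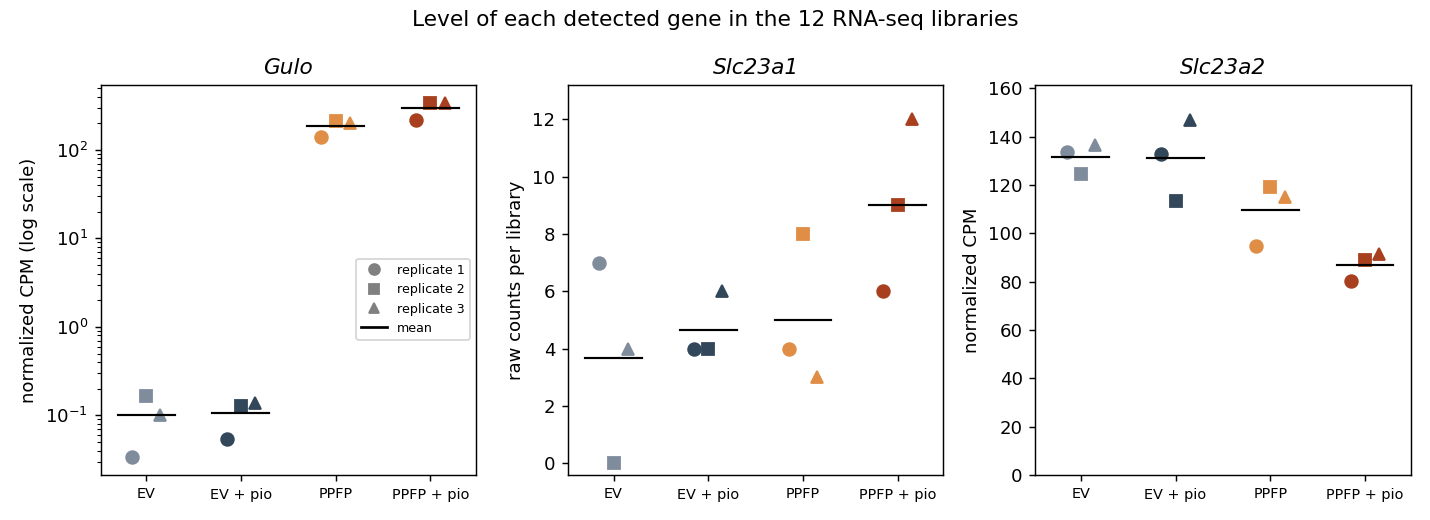
Level of Gulo (CPM, log axis), Slc23a1 (raw counts) and Slc23a2 (CPM) in each of the 12 libraries, by group, with symbols for the replicate number and a bar at the group mean. Gulo lies between 0.0338 and 0.168 CPM for EV and between 139 and 342 CPM for PPFP, Slc23a1 never passes 12 counts, and Slc23a2 falls to 80.4 to 91.4 CPM in PPFP cells with pioglitazone. Rgn had no counts and is not drawn.

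Pioglitazone was followed by more Gulo in PPFP cells for each replicate number. The level went from 139 to 216 CPM in replicate 1, from 215 to 338 CPM in replicate 2 and from 199 to 342 CPM in replicate 3, ratios of 1.55, 1.57 and 1.71. The groups did not overlap, but only just, since the lowest library with pioglitazone (216 CPM) and the highest without (215 CPM) were nearly level. Replicate 1 was the lowest of both groups. Groups without overlap were found for 34.4% of the 10064 genes tested. The log2 fold change was 0.71 (SE 0.23), with an adjusted p of 0.10 in the edgeR quasi-likelihood test, so that the rise did not pass in that test. It passed in edgeR's exact test (adjusted p = 0.027), in DESeq2 (adjusted p = 0.022) and with all 12 libraries in one edgeR fit (adjusted p = 0.048). Without the replicate 1 library with pioglitazone it passed (0.88, adjusted p = 0.034, edgeR). With the replicate number as a block the log2 fold change was 0.70 (SE 0.037, adjusted p = 1.2e-13, edgeR). The block let 51.6% of all genes pass (27.7% higher and 23.9% lower), against 14.8% (7.63% higher and 7.13% lower) without it, and 2.42% also had a fold change above 2 without it. This comparison uses the same PPFP libraries without pioglitazone that entered the description above.

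In EV cells Gulo was too low to be tested for pioglitazone. Summed counts were 9 without and 10 with the drug, a ratio of 1.03 (95% exact interval 0.376 to 2.86). The fitted difference in pioglitazone response between PPFP and EV cells was 0.65 on the log2 scale (SE 0.93), given as a description because Gulo had at most 5 counts in each EV library. It ran from 0.098 to 1.05 when single libraries were left out. The interval of the EV ratio holds both 1 and the ratio of 1.64 (95% exact interval 1.60 to 1.67) from the summed counts of PPFP cells.

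**Figure D2:**
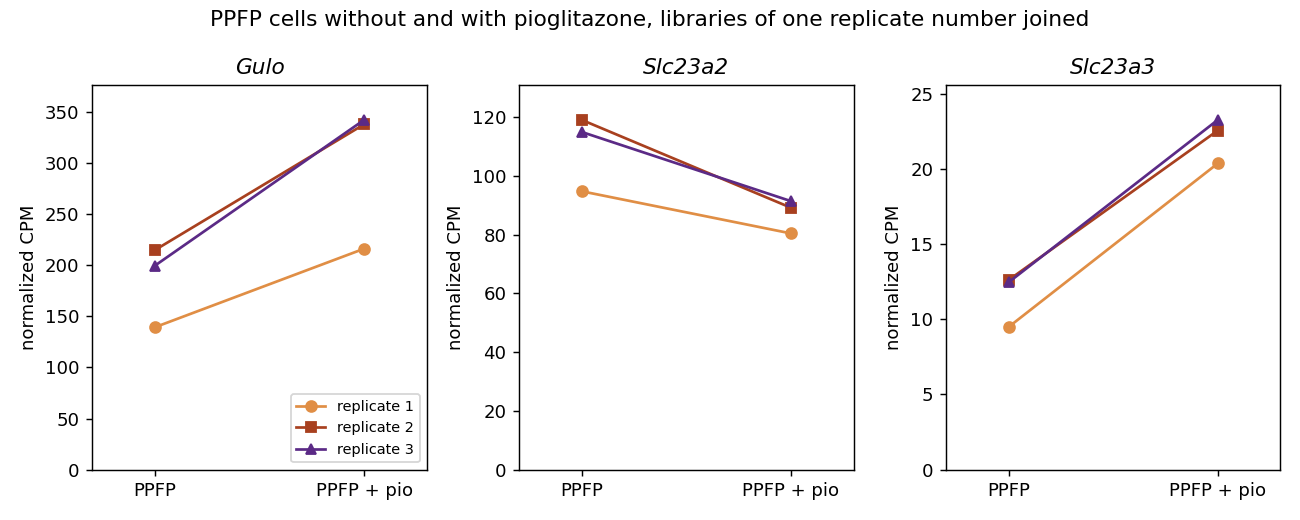
Normalized CPM of Gulo, Slc23a2 and Slc23a3 in PPFP cells without and with pioglitazone, with a line joining the libraries of each replicate number. Gulo and Slc23a3 rise and Slc23a2 falls along all 3 lines, and replicate 1 lies lowest at both ends in each panel.

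Rgn, the lactonase of the step before Gulo, had 0 counts in all 12 libraries. The upper 95% Poisson limit for a group was between 0.0382 CPM in EV cells with pioglitazone and 0.0477 CPM in PPFP cells without it. It was 1 of 3447 genes (20.5%) with no counts in any library. Its 4 neighbours on one side in RefSeq order were all counted, with 3534 to 5307 counts per library for Ndufb11 and 2181 to 3656 for Rbm10. On the other side Jade3 had 82 to 734 counts and Rp2 had 54 to 809, whereas Slc9a7 and Chst7 had none. Counts of 0 do not show whether the gene model used for counting covered the transcript. At this depth, expression of Rgn was not detectable in either line.

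Slc23a1, the epithelial ascorbate transporter, was near the limit of detection. Its counts were 7, 0 and 4 in EV cells without pioglitazone and 4, 4 and 6 with it, against 4, 8 and 3 in PPFP cells without pioglitazone and 6, 9 and 12 with it. The groups without pioglitazone overlapped, and with pioglitazone the lowest PPFP library equalled the highest EV library in raw counts. The gene did not pass the filter on low counts in any comparison. When all genes with a count were kept, the log2 fold change with pioglitazone was 1.11 (SE 0.46, adjusted p = 0.084, edgeR quasi-likelihood test over 13001 genes). The summed counts of 27 and 14 gave a ratio of 2.24 (95% exact interval 1.13 to 4.62), which covers counting error only. For pioglitazone in PPFP cells the ratio was 1.67 (95% exact interval 0.859 to 3.38), and in EV cells 1.18 (95% exact interval 0.497 to 2.87).

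Slc23a2, the widespread ascorbate transporter, was expressed in every library and was lower in PPFP cells. Slc23a2 in EV cells without pioglitazone was at 134, 125 and 136 CPM, and with pioglitazone at 133, 113 and 147 CPM. In PPFP cells it was at 94.7, 119 and 115 CPM without pioglitazone and at 80.4, 89.1 and 91.4 CPM with it. Within EV cells the groups overlapped throughout. The PPFP libraries with pioglitazone lay below all others, and no PPFP library without pioglitazone reached the EV libraries without pioglitazone. Such gaps were common. Between the lines, groups did not overlap for 56.5% of all genes tested without pioglitazone and 62.9% with it. For pioglitazone in PPFP cells the share was 34.4%. Means without and with the drug were 132 ± 6.2 and 131 ± 16.7 CPM (SD, n = 3) for EV, and 110 ± 13.0 and 87.0 ± 5.8 CPM for PPFP.

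The log2 fold change of Slc23a2 in PPFP versus EV cells was -0.26 (SE 0.10) without pioglitazone, as a description. With pioglitazone it was -0.58 (SE 0.12, adjusted p = 0.0053, edgeR quasi-likelihood test), a level 1.49-fold lower and so under the study's limit of a 2-fold change. The libraries with pioglitazone are of the same lines and experiments, and that p is not independent of the first difference. Among all genes tested 26.4% were lower at that adjusted p, so the fall was a common one in this comparison. In PPFP cells the pioglitazone log2 fold change was -0.32 (SE 0.11), with an adjusted p of 0.099 in edgeR's quasi-likelihood test, and it passed without the replicate 1 library without pioglitazone (-0.43, adjusted p = 0.016). The ratio of CPM with to without the drug was 0.849, 0.749 and 0.795 for the 3 replicate numbers, below 1 in each. With the replicate block the log2 fold change was -0.32 (SE 0.042, adjusted p = 8.0e-07, edgeR), where 51.6% of all genes passed. In EV cells it was -0.0076 (SE 0.11, adjusted p = 1.00, edgeR), with ratios of 0.994, 0.911 and 1.08.

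The pioglitazone response of Slc23a2 in PPFP cells differed from that in EV cells by -0.33 on the log2 scale (SE 0.15, adjusted p = 0.40, edgeR quasi-likelihood test). With the replicate number as a block within each cell line the difference was -0.32 (SE 0.065, adjusted p = 0.0019, edgeR). That block let 34.3% of all genes pass (17.2% higher and 17.1% lower), against 2.64% without it (1.38% higher and 1.26% lower), of which 0.925% of all genes also had a difference above 2-fold.

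The relatives of the transporters that are not known as ascorbate carriers moved more. Slc23a3, an SLC23 gene without an established ascorbate function, had 5, 13 and 11 counts in EV cells without pioglitazone and 14, 3 and 10 with it. In PPFP cells it had 258, 338 and 291 counts without pioglitazone and 538, 605 and 697 with it. The 3 levels were well apart, with EV cells lowest and PPFP cells with pioglitazone highest. The log2 fold change in PPFP versus EV cells was 5.13 (SE 0.29) without and 6.30 (SE 0.31) with pioglitazone. Slc23a3 met the filter on low counts in all 3 PPFP libraries but only 2 EV libraries of each comparison. The role lists were also chosen with earlier results of these data known, so both values are a description, with no test. In PPFP cells with versus without pioglitazone the log2 fold change was 0.95 (SE 0.13, adjusted p = 0.0062, edgeR). In EV cells with versus without pioglitazone it was -0.22 (SE 0.57, adjusted p = 1.00, edgeR). The difference between these responses was 1.15 (SE 0.50, adjusted p = 0.34, edgeR), so the responses of the lines were not shown to differ.

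Slc23a4, a nucleobase transporter of the same family listed as RGD1565367, went the other way. It had 54, 77 and 41 counts in EV cells and 10, 23 and 10 in PPFP cells without pioglitazone, and 89, 89 and 52 against 12, 8 and 18 with it. RGD1565367 met the filter in all 3 EV libraries but only 2 PPFP libraries of each comparison. Its log2 fold change was -1.79 (SE 0.39) without and -2.35 (SE 0.30) with pioglitazone, likewise given as a description, with no test. The fitted changes of Slc23a3 and RGD1565367 were thus opposite in sign.

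The other genes of the pathway were taken from 6 lists by role, 56 genes in all, of which 50 were in the table, 3 had no counts and 39 were tested between the lines. In PPFP versus EV cells without pioglitazone 8 were higher and 19 lower at an adjusted p under 0.05 in edgeR's quasi-likelihood test, where 45.2% of all genes passed. With pioglitazone 10 were higher and 19 lower, where 52.7% passed. The median log2 fold change of the tested genes was -0.28 in both comparisons, against 0.0016 and 0.012 over all genes. Of these, 6 genes without and 8 with pioglitazone met the filter in every library of only 1 line, and each was called lower in the other line. Without them 33 genes were left without pioglitazone, 7 higher and 14 lower, and 31 with it, 8 higher and 13 lower.

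In the supply of glucuronate, 7 of 12 genes were tested. In PPFP versus EV cells 1 was higher and 2 were lower without pioglitazone, and 2 were higher and 1 lower with it, against 22% higher and 23.1% lower of all genes without the drug and 26.3% and 26.4% with it. Ugp2, which makes UDP-glucose, rose by a log2 fold change of 0.48 (adjusted p = 0.0041) without and 0.54 (adjusted p = 5.8e-04, edgeR) with pioglitazone. Pgm2, a phosphoglucomutase, was with the drug at 38.3 ± 5.3 CPM (SD, n = 3) for EV and 62.7 ± 5.5 CPM for PPFP, a log2 fold change of 0.72 (adjusted p = 0.0025, edgeR). Ugt1a6, a glucuronosyltransferase, fell from 7.36 ± 1.5 to 3.10 ± 0.52 CPM (SD, n = 3) without pioglitazone and from 7.22 ± 0.85 to 2.11 ± 0.44 CPM with it. Ugdh, which oxidizes UDP-glucose to UDP-glucuronate, had a log2 fold change of 0.52 (SE 0.25, adjusted p = 0.12, edgeR) with pioglitazone. Akr1a1, which reduces glucuronate to gulonate, the compound before the Rgn step, was at 484 ± 29, 480 ± 23, 496 ± 24 and 462 ± 21 CPM (SD, n = 3) in EV cells without and with pioglitazone and PPFP cells without and with it. Its log2 fold changes were 0.036 (SE 0.083) and -0.041 (SE 0.081) between the lines. Of 4 genes listed for glucuronate and gulonate use elsewhere, 2 were tested. Without pioglitazone 1 was lower and with it 2 were, where 23.1% and 26.4% of all genes were lower. Cryl1, a gulonate dehydrogenase, fell to 1, 0 and 2 counts in PPFP cells with pioglitazone from 136, 122 and 60 in EV cells. That is a ratio of 0.0110 (95% exact interval 0.00225 to 0.0323, counting error only). Cryl1 met the filter only through EV cells and could hardly be called other than lower. Xylb was with the drug at 91.2 ± 15 CPM (SD, n = 3) for EV and 67.6 ± 8.1 CPM for PPFP, a log2 fold change of -0.41. The call of Xylb was lost in 6 of 14 alternatives.

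In ascorbate recycling all 10 genes were tested. Without pioglitazone 5 were higher and 2 lower in PPFP cells, and with pioglitazone 5 were higher and 3 lower, against 22% higher and 23.1% lower of all genes without the drug and 26.3% and 26.4% with it. Glrx, a glutaredoxin that can reduce dehydroascorbate, rose by a log2 fold change of 1.53 (adjusted p = 5.1e-04) without and 1.21 (adjusted p = 0.0026, edgeR) with pioglitazone. Cyb5b, the cytochrome b5 of the mitochondrial outer membrane, which takes part in reducing the ascorbate radical, rose from 186 ± 24 to 307 ± 6.8 CPM (SD, n = 3) without and from 176 ± 29 to 370 ± 7.0 CPM with pioglitazone. Cyb561, which passes electrons from ascorbate across vesicle membranes, fell from 170 ± 23 to 92.2 ± 10 CPM (SD, n = 3) and from 164 ± 21 to 67.9 ± 6.7 CPM. Gsto1, Txnrd1 and Cyb5r3 were also higher in both comparisons, and Gsto2 was lower in both, but most of these calls were less firm. Gsto1 with pioglitazone and Cyb5r3 without it kept their calls in all 14 alternatives. Gsto2 without pioglitazone (-0.86, adjusted p = 0.047, edgeR) was lost when any of the 6 libraries was left out (adjusted p 0.051 to 0.14), and with pioglitazone (-0.84, adjusted p = 0.018, edgeR) without EV replicate 1 or PPFP replicate 2 (0.066 and 0.068). Cyb5r3 with pioglitazone (0.34, adjusted p = 0.034, edgeR) was lost without EV replicate 1 or any PPFP library (0.051 to 0.12). Gsto1 was lost without pioglitazone when EV replicate 1 or PPFP replicate 3 was left out (0.084 and 0.063). Txnrd1 was lost without EV replicate 1 in the comparison without pioglitazone (0.053), and without EV replicate 1 or 2 in that with it (0.076 and 0.060).

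Among the glucose transporters that can carry dehydroascorbate, 4 of 6 were tested, and all 4 were lower without pioglitazone and 3 with it, where 23.1% and 26.4% of all genes were lower. Slc2a4 and Slc2a10 met the filter only through EV cells and could hardly be called other than lower, which leaves Slc2a1 and Slc2a8. Slc2a1 (GLUT1), the most widespread, was at 383 ± 79 CPM (SD, n = 3) for EV and 281 ± 7.8 CPM for PPFP without the drug, with -0.44 as log2 fold change (adjusted p = 0.036, edgeR). That call was lost without any single PPFP library or without EV replicate 1 (adjusted p 0.051 to 0.099). With pioglitazone it was at 377 ± 80 and 307 ± 17 CPM (-0.28, adjusted p = 0.15, edgeR), and the groups overlapped. Slc2a8 (GLUT8) had log2 fold changes of -1.97 (adjusted p = 5.1e-04) without and -2.06 (adjusted p = 3.1e-04, edgeR) with pioglitazone. Slc2a10 (GLUT10) went from 84, 63 and 64 counts to 4, 3 and 0 without pioglitazone, and from 90, 52 and 53 to 2, 5 and 3 with it. Slc2a4 (GLUT4), the insulin-sensitive transporter, had 72, 59 and 62 counts in EV cells with pioglitazone and 2 in each PPFP library, a ratio of 0.0361 (95% exact interval 0.0131 to 0.0800).

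Of 22 oxygenases that use ascorbate, 14 were tested. Without pioglitazone 1 was higher and 9 lower in PPFP cells, and with pioglitazone 2 were higher and 9 lower, against 22% higher and 23.1% lower of all genes without the drug and 26.3% and 26.4% with it. The same 9 genes were lower in both comparisons, namely the collagen-modifying Plod1, Plod2, Plod3, Lepre1, Leprel2 and P4ha3 and, beside them, Pam, Hif1an and Egln2. Of the 14 tested, 8 modify collagen. Egln2 lost its call in 8 of 14 alternatives without pioglitazone and in 6 of 14 with it. Hif1an lost its call with pioglitazone in 4 of 14, of which 3 left out a single library. Plod2 in both comparisons and P4ha3 with pioglitazone met the filter only through EV cells, and Phyh with pioglitazone in all 3 libraries of PPFP cells alone. Without these genes 1 of 13 was higher and 8 lower without the drug, and 1 of 11 was higher and 7 lower with it. Plod2, a lysyl hydroxylase, had 199 to 242 counts in EV cells and 2, 0 and 0 in PPFP cells without pioglitazone, a ratio of 0.00340 (95% exact interval 4.1e-04 to 0.0123). Leprel2, a prolyl 3-hydroxylase, had log2 fold changes of -1.26 (adjusted p = 0.0024) without and -1.59 (adjusted p = 3.4e-04, edgeR) with pioglitazone. Pam, which amidates peptide hormones, fell from 244 ± 6.0 to 147 ± 4.3 CPM (SD, n = 3) without and from 251 ± 14 to 123 ± 2.8 CPM with pioglitazone. P4ha2, a catalytic subunit of collagen prolyl 4-hydroxylase, went the other way with pioglitazone. It was at 243, 227 and 254 CPM in EV libraries and at 259, 362 and 370 CPM in PPFP libraries, a log2 fold change of 0.47 (SE 0.15, adjusted p = 0.034, edgeR). That call was lost without EV replicate 1 or 2 or PPFP replicate 2 or 3 (adjusted p 0.085 to 0.12), and without pioglitazone the fold change of P4ha2 was -0.00059 on the log2 scale (adjusted p = 1.00, edgeR). Phyh was higher in both comparisons. It is the peroxisomal phytanoyl-CoA hydroxylase and had 15 to 23 counts in EV cells and 57 to 67 in PPFP cells without pioglitazone (log2 fold change 1.85, adjusted p = 6.6e-04, edgeR).

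**Figure D3:**
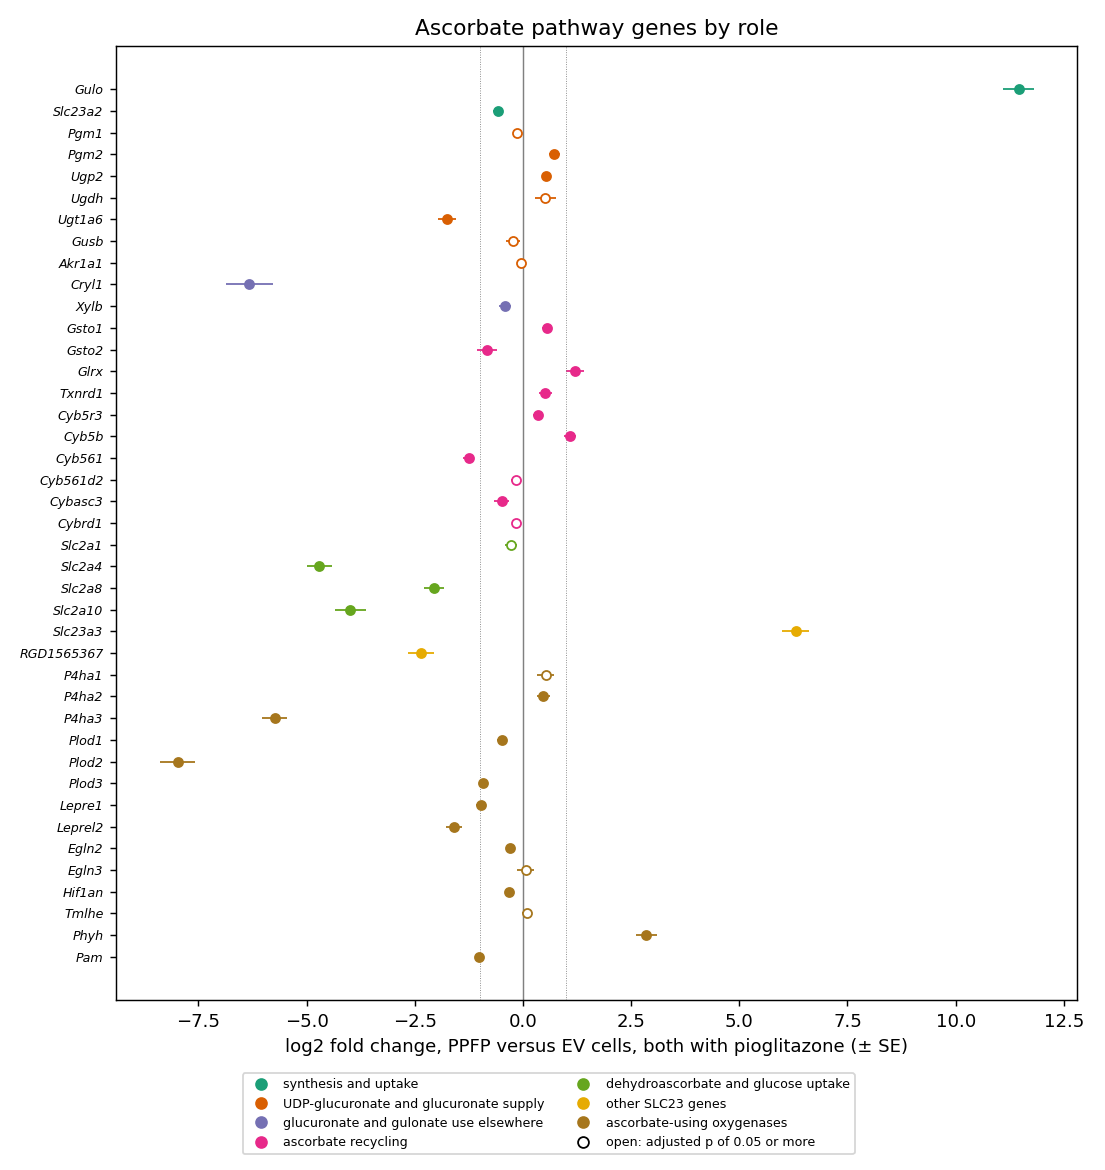
Log2 fold change ± SE of Gulo, Slc23a2 and the 39 tested pathway genes in PPFP versus EV cells, both with pioglitazone, grouped by role. Filled points had an adjusted p under 0.05, Gulo is shown as a description, and dotted lines mark a 2-fold change. Plod2, Cryl1, P4ha3, Slc2a4, Slc2a10 and RGD1565367 met the filter on low counts in every library of EV cells alone. Slc23a3 and Phyh did so in PPFP cells alone. These points are a description too. Gulo (11.45) and Slc23a3 (6.30) lie far to the right, and Plod2, Cryl1 and P4ha3 far to the left. The fitted values of Plod2, Cryl1 and Slc2a4, at 3 counts or fewer in PPFP cells, depend on the prior count.

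For pioglitazone in PPFP cells 36 pathway genes were tested. Of these, 3 rose and 5 fell at an adjusted p under 0.05 in edgeR's quasi-likelihood test. Over all genes 14.8% passed, 7.63% higher and 7.13% lower. Of the 33 pathway genes that met the filter in every library, 3 rose and 4 fell. With the replicate block 11 of the 36 rose and 13 fell, where 51.6% of all genes passed. P4ha3, a subunit of the collagen prolyl 4-hydroxylase, fell from 32, 18 and 22 counts to 5, 9 and 5, against 325 to 450 counts in EV cells without pioglitazone. P4ha3 met the filter only through the libraries without pioglitazone, so its log2 fold change of -1.99 (SE 0.38) is a description, with no test. The response of P4ha3 differed between the lines by -1.92 (SE 0.42, adjusted p = 0.037, edgeR), the only pathway gene of 40 to pass in that fit, where 2.64% of all genes passed, and the call was lost in 8 of 12 fits that left out 1 library each. With the replicate block within each cell line, 8 pathway genes of 40 passed as higher and 10 as lower, where 34.3% of all genes passed. Pgm2 rose by a log2 fold change of 0.48 (adjusted p = 0.017, edgeR), and its level of 62.7 ± 5.5 CPM (SD, n = 3) compared with 45.3 ± 4.2 CPM without the drug. The call of Pgm2 was lost without any of 3 libraries (adjusted p 0.066 to 0.084), namely replicate 3 with the drug and replicates 2 and 3 without it. Cybrd1, a plasma membrane reductase that can use ascorbate, fell by a log2 fold change of 0.41 (adjusted p = 0.0079, edgeR). Pam had a log2 fold change of -0.25 (adjusted p = 0.024, edgeR), a call lost without any of the 6 libraries but PPFP replicate 1 without the drug (adjusted p 0.050 to 0.11).

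In EV cells none of the 39 tested pathway genes and 0 of 10146 genes in all passed in edgeR's quasi-likelihood test (0%), and groups did not overlap for 1.48% of genes. At an unadjusted p under 0.05 there were 16 genes. With the replicate block 1 gene passed the adjusted p, without a 2-fold change, and no 2-fold call was made by edgeR's exact test or DESeq2.

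The genes whose profile over the 12 libraries was most like that of Gulo were Dhrs9, Serpina3n, Ucp1, Fgfbp1 and Reln. Likeness was the root mean square (RMS) difference between log2 CPM values, each centred on the gene's own mean, over 10482 genes. Dhrs9, a short-chain dehydrogenase that acts on retinoids and steroids, was nearest (RMS difference 0.39), with mean levels of 0.100 and 0.108 CPM in EV cells and 118 and 315 CPM in PPFP cells, without and with pioglitazone. Serpina3n, a secreted protease inhibitor, was at 0.79, and Ucp1, the uncoupling protein of brown fat, at 0.87. The mean of Ucp1 was 87.4 CPM without and 345 CPM with pioglitazone in PPFP cells. Fgfbp1, a carrier of fibroblast growth factors, differed by 0.89 and Reln, a secreted glycoprotein, by 1.21. Gulo itself ranged over 11.70, mostly the step from EV to PPFP cells, and its neighbours share that step. With pioglitazone in PPFP cells Gulo went from 184 to 298 CPM, a smaller rise than those of Dhrs9 and Ucp1.

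For Slc23a2 the nearest profiles were Wbp1l (RMS difference 0.054), Asl of the urea cycle (0.071), P2rx4, an ATP-gated channel (0.074), Pias3, a SUMO ligase (0.075), and Ppox of haem synthesis (0.082). Slc23a2 itself ranged over 0.87 on the log2 scale. Wbp1l had mean levels of 242 and 243 CPM in EV cells and 202 and 165 CPM in PPFP cells, without and with pioglitazone. Rgn and Slc23a1 did not enter this search, because they did not pass the filter on low counts.

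**Figure D4:**
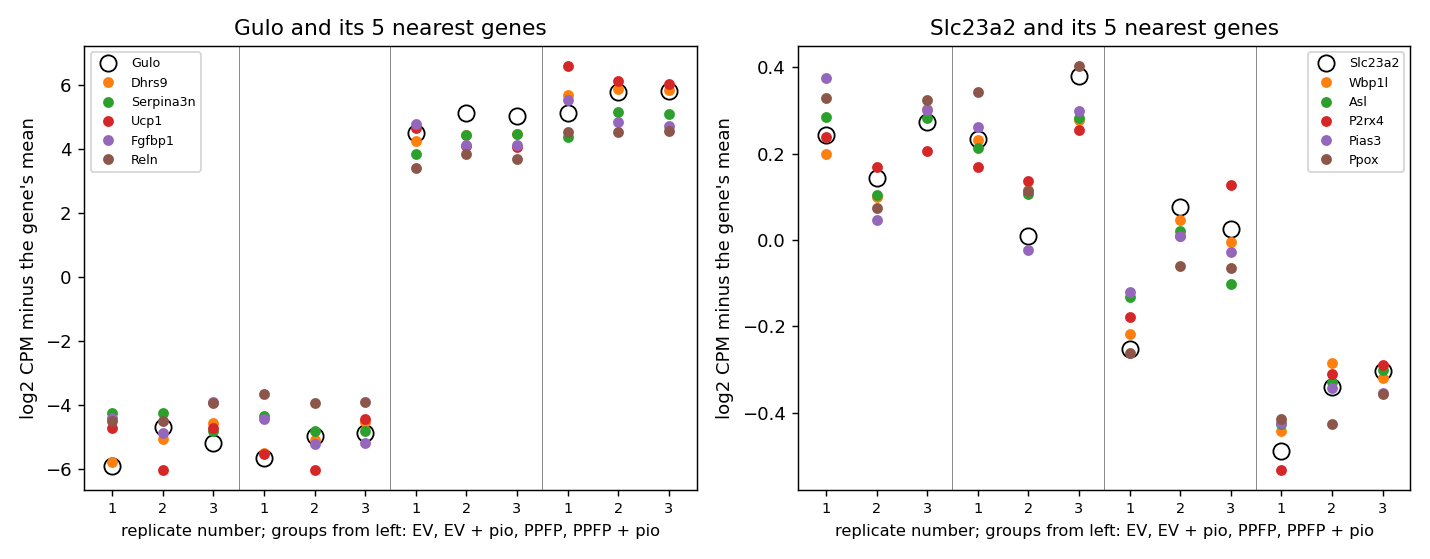
Centred log2 CPM in the 12 libraries of Gulo (left) and Slc23a2 (right), drawn as open circles, and of the 5 genes most like each. Gulo and its neighbours are low in the 6 EV libraries and high in the 6 PPFP libraries, and those of Slc23a2 step down from EV cells to PPFP cells and again with pioglitazone, over a range of 0.87.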

How the data were processed

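RNA was measured in 12 libraries, 3 for each of EV and PPFP cells without and with pioglitazone. Per the labels and methods, the authors aligned paired-end reads to rn4 with TopHat2 2.0.11 and counted reads per gene with HTSeq 0.6.1p1, in the mode that keeps only reads lying wholly within a gene. The deposited values are raw, unnormalized counts by gene symbol. The ChIP-seq peak lists were not used here, since no annotation of their build was at hand.

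After the filterByExpr filter and TMM scaling, the quasi-likelihood test of edgeR 4.0.16 (R 4.3.3) was run on the 6 libraries of the 2 groups compared. p-values were adjusted by Benjamini-Hochberg over all genes tested, and passing means an adjusted p under 0.05. The study's calls also need a fold change above 2. The difference in response came from an interaction contrast over all 4 groups. CPM used TMM factors over the 12 libraries (0.925 to 1.05), and log2 CPM a prior count of 2. Exact intervals (95%) of summed counts are conditional binomial ones. Depth was 23724703 to 35240176 counts per library, at which 3 counts equal 0.0813 to 0.128 CPM. The method was tested on simulated data. Promoters came from RefSeq (GRCr8) and were searched in Python 3.11.15; figures were drawn with matplotlib 3.10.9. The promoters to print, Slc23a3 among them, and the rule for capitals (a match to the repeat in at least 9 letters, otherwise exact half-sites) were chosen after the matches had been seen.

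The genes named are the 4 vitamin C genes, genes of the role lists, the 5 genes most like each, and Pax8 and Pparg. Members and lists were chosen with earlier results of these data known. Within each cell line, libraries of the same replicate number deviated together (correlations of 0.432 to 0.743 in PPFP cells and 0.530 to 0.774 in EV cells). In EV cells different numbers gave -0.686 to -0.0420, so the number pairs libraries there. In PPFP cells replicates 2 and 3 also deviated together across numbers (0.535 and 0.350), so the number sets only replicate 1 apart. Between the lines the same number gave -0.378 to 0.316. EV replicate 3 with PPFP replicate 1 gave 0.509 without and 0.452 with pioglitazone. Alternatives were the exact test, DESeq2 1.42.0, other scalings and filters, a fit of all 12 libraries, the replicate block and leaving out each library.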

Additional observations from a re-analysis of the deposited data

Results flagged for a closer look

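For P4ha3 the interaction term of the pioglitazone response was -1.92 on the log2 scale (SE 0.42, adjusted p = 0.037, edgeR quasi-likelihood test). It fell in PPFP cells (-1.99), whereas in EV cells the log2 fold change was -0.081. The fall is a description, with no test, because P4ha3 met the filter only through the PPFP libraries without pioglitazone. Those with the drug held 19 counts in all, so the interaction rests on few counts too. Its adjusted p lay between 7.7e-04 and 0.12 over the alternatives, and the difference between -2.28 and -1.71. The call was lost in 8 of 17 alternatives, each of which left out a single library.

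The pioglitazone response of Slc23a2 differed between the lines by -0.32 with the replicate number as a block within each cell line (SE 0.065, adjusted p = 0.0019, edgeR). Without the block it was -0.33 (adjusted p = 0.40), and the alternatives gave adjusted p-values from 0.0019 to 0.75.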

How the results depend on the processing

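Of 139 alternative values for Gulo and Slc23a2, 126 kept their direction and side of the threshold or moved by less than the spread between replicates. The rise of Gulo in PPFP cells with pioglitazone passed with edgeR's exact test (0.71, adjusted p = 0.027), DESeq2 (0.70, adjusted p = 0.022), all 12 libraries in one fit (0.69, adjusted p = 0.048) and the replicate block (0.70). Leaving out single libraries gave 0.52 to 0.88, and it passed only without PPFP cells with pioglitazone replicate 1 (0.88, adjusted p = 0.034). The fall of Slc23a2 there passed with DESeq2 (-0.33, adjusted p = 0.044) and the replicate block (-0.32). Leaving out single libraries gave -0.43 to -0.28, and it passed only without PPFP cells without pioglitazone replicate 1 (-0.43, adjusted p = 0.016). The cause was not tested.

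The log2 fold change of Gulo in PPFP versus EV cells without pioglitazone ran from 10.38 to 11.33 when single libraries were left out (11.33 without EV cells without pioglitazone replicate 2), with EV counts of 1 to 5. With pioglitazone it was 11.07 to 11.65. A filter of at least 10 counts in every compared library gives no value for Gulo there or in the interaction. In EV cells the pioglitazone log2 fold change of Slc23a2, -0.0076, was 0.089, 0.00079 and 0.036 without EV cells with pioglitazone replicate 2, EV cells without pioglitazone replicate 1 and EV cells without pioglitazone replicate 3 (range -0.11 to 0.089). That of Slc23a3, -0.22, was 0.17 and 0.040 without EV cells with pioglitazone replicate 2 and EV cells without pioglitazone replicate 2 (range -0.55 to 0.17). No alternative brought either past the threshold.

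The interaction of Slc23a2 passed with the replicate block within each cell line (-0.32, adjusted p = 0.0019), which also raised the genes called in that comparison from 97 to 269, and leaving out single libraries gave 52 to 105. Genes called in PPFP versus EV cells without pioglitazone went from 1496 to 983 with the filter of 10 counts. In PPFP cells with versus without pioglitazone, 244 were called, and 160 to 296 without single libraries. Between the lines with pioglitazone the replicate block changed no call of Slc23a2. Over every pathway gene that passed in any comparison (33 genes, 65 results), 797 of 900 alternative values stayed past the threshold, 103 lost it and 0 reversed. The losses fell on 21 results, among them those of Cyb5r3 (9 of 14 with pioglitazone in PPFP cells), Egln2 and Gsto2 (8 of 14 each between the lines without pioglitazone), P4ha3 (8 of 17 in the interaction) and Cybasc3, Pgm1 and Xylb (6 of 14 each). Depth limits Slc23a1 and the EV level of Gulo, where a few counts set each value. Rgn had 0 counts in all 12 libraries, and whether the gene model used for counting covered its transcript was not tested.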
